A study of Mus musculus with 8 samples.

Results

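The genes described here are 58 ribosome biogenesis factors, listed by symbol: RNA polymerase I genes, small nucleolar ribonucleoprotein (snoRNP) proteins, and assembly factors of the small and the large ribosomal subunit. Of these, 56 were matched to a row among the 37310 Ensembl gene identifiers of the count tables; Riok2 and Noc2l were not matched and are not analysed here. All 56 passed the filter on low counts. The list was drawn up by function with earlier results of these libraries known, so the counts over it are descriptions. RNA came from pooled 2-cell embryos of C57BL/6N mice. There were 4 wild-type pools and 4 pools labelled as double knockout (DKO) of Gadd45a and Gadd45b. DKO mice came from crosses of double heterozygous animals, which descended from both single knockout lines. Each pool held 23 to 35 embryos of 1 litter, taken at 20 h past the plug. Mothers were wild-type or DKO females, aged 3 to 4 weeks, superovulated and naturally mated, and the males' genotype is not stated. Loss of the maternal and loss of the embryonic gene product therefore cannot be told apart.

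Ribosomes are built in the nucleolus. RNA polymerase I transcribes the precursor of the ribosomal RNAs, snoRNPs guide its chemical modification, and a long series of assembly factors folds, cuts and exports the nascent small and large subunits. The oocyte ends its growth with its nucleolus inactive and a store of ribosomes, and after fertilization the embryo carries compact nucleolus precursor bodies in which ribosomal RNA synthesis restarts around the 2-cell stage. Messenger RNAs of the assembly machinery at this stage can be inherited from the oocyte or newly made, and a count of a whole gene does not separate these sources.

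Libraries held 21329736 to 23919114 counts, with 18433 to 20427 genes detected, and the 56 genes took 0.886% to 1.51% of a library's counts. Levels are given as CPM, counts divided by the library total and scaled up, with TMM scaling, a correction for differences in library composition. Gadd45b counts were 910, 946, 1395 and 808 in wild-type and 4, 14, 1 and 6 in DKO replicates 1 to 4. The log2 fold change of Gadd45b (DKO minus wild-type) was −7.33 ± 0.42 (SE; adjusted p of 5.63e-07 in edgeR). Gadd45a counts were 482, 341, 502 and 468 in wild-type and 237, 247, 163 and 201 in DKO, with a log2 fold change of −1.09 ± 0.22 (SE; adjusted p of 0.303 in edgeR and 0.000794 in DESeq2); which part of that gene is deleted is not stated. The stage was checked with markers. All 10 matched entries of the 2-cell list (of 13 listed, Zscan4d and Zfp352 among them) were above 1 CPM in every pool. They summed to 1037 to 1340 CPM in wild-type and 1044 to 1449 CPM in DKO. Eif1a and Eif1ad held a large part of these sums. Eif1ad was matched by that symbol and not by its listed alternative Gm2022. Whether Eif1a and Eif1ad are particular to this stage was not checked, so the sums are only a rough check. Eif1a was at 354 to 479 CPM in wild-type and 278 to 399 CPM in DKO, and Eif1ad at 131 to 187 and 75.0 to 168 CPM. Tdpoz4, 1 of the 10 and singled out after its values were seen, did not overlap between genotypes. It was at 25.1 to 36.5 CPM in wild-type and 10.1 to 22.5 CPM in DKO (edgeR adjusted p of 0.469). Of all genes tested, 2.55% had no overlap and lower values in DKO. Positive log2 fold changes were found in 6 of the 10 transcripts, beside 51.2% of all genes tested. The 13 cumulus and granulosa cell markers summed to 9.19 to 14.2 CPM in wild-type and 8.87 to 14.4 CPM in DKO, with Ptx3, Foxl2, Amh and Inhba at 0 in all 8 pools. Tnfaip6 and Cyp19a1 were the 2 of these markers above 1 CPM in all pools. Tnfaip6, at 5.97 to 11.2 CPM in wild-type and 5.53 to 10.9 CPM in DKO, made up most of the sum. The 7 sperm markers summed to 0.518 to 1.47 CPM in wild-type and 1.11 to 2.37 CPM in DKO. The 10 markers of blastocyst lineages summed to 38.8 to 45.1 CPM in wild-type and 36.9 to 47.3 CPM in DKO, and 1 of them, Gata4, was above 1 CPM in all pools and made up most of the sum.

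Levels across the machinery spanned a wide range in wild-type embryos. Compared per kilobase of the main transcript, Npm1, which encodes the nucleolar chaperone nucleophosmin, was the highest at 749 ± 192 CPM per kilobase, followed by the H/ACA snoRNP protein Nhp2 at 566 ± 41.6 and the small subunit methyltransferase Emg1 at 451 ± 23.2 (SD, n = 4). The order of Npm1 and Nhp2 rests on a difference of means smaller than the SD of Npm1. At the low end were the processome protein Nol6 at 1.58 ± 0.244 and the largest polymerase subunit Polr1a at 3.04 ± 0.366 CPM per kilobase (SD, n = 4). Within 1 complex the levels were not even. In the box C/D snoRNP, which carries the 2'-O-methylation activity, Nop58 and Nop56 stood at 210.4 ± 35.5 and 164 ± 18.6 CPM per kilobase, whereas the methyltransferase itself, Fbl (fibrillarin), stood at 23.3 ± 3.42 (SD, n = 4). In the box H/ACA snoRNP, which carries out pseudouridylation, Gar1 stood at 26.9 ± 5.57 CPM per kilobase beside 192 ± 33.9 for the pseudouridine synthase Dkc1 (SD, n = 4). Values per kilobase rest on the length of an annotated transcript that embryos of this stage need not use, so they compare genes only roughly.

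**Figure D1:**
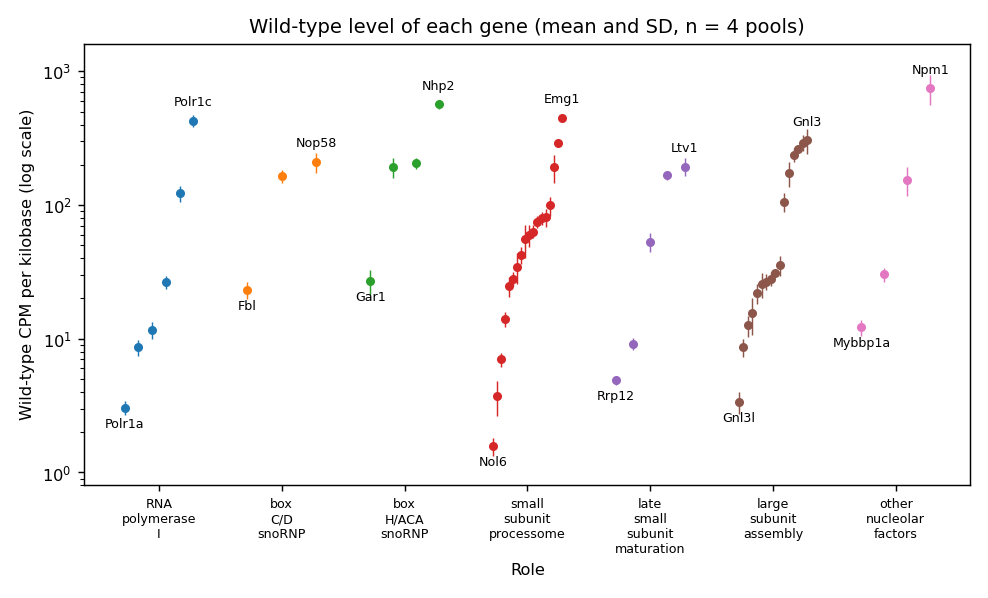
Wild-type level of each of the 56 genes in CPM per kilobase of the main transcript (vertical axis, log scale), grouped by role (horizontal axis). Points are means and bars are SD over 4 wild-type pools. The lowest and the highest gene of each role are named, and Fbl and Gar1 lie below the other proteins of their snoRNPs.

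The main question was whether these genes differed between DKO and wild-type embryos. No gene of the 56 passed edgeR's quasi-likelihood test at an adjusted p under 0.05, against 0.0267% of all 14970 genes tested, and DESeq2 and limma-voom also called 0 (0.314% and 0.0334% of all genes). The log2 fold change (DKO minus wild-type) was negative for 52 of the 56 genes, beside 48.8% of all genes tested, and its median was −0.22 over the 56 genes and 0.01 over all genes tested. At an unadjusted p under 0.05, 6 genes were lower in DKO, beside 4.44% of all genes tested in that direction, and 0 were higher, beside 5.79%. These 6 were Pes1, Noc4l, Wdr75, Gnl2, Utp6 and Nmd3. DESeq2 and limma-voom had 7 and 4 lower genes at that p, beside 5.53% and 5.16%. With edgeR and 1 library left out, the lower genes numbered 1 without wild-type replicate 1 (beside 3.15% of all genes in that fit), 3 without wild-type replicate 2 (2.91%), 1 without wild-type replicate 4 (3.19%) and 11 without DKO replicate 2 (6.2%), so that the share over all genes moved as well. Values of the genotypes did not overlap in 1 gene, Pes1, which was lower in every DKO pool, where 2.55% of all genes tested had no overlap and lower values in DKO. No overlap with higher values in DKO was found in 0 of the 56, beside 2.79% of all genes. The median standard error of a log2 fold change was 0.18 over the 56 genes, so most single differences were close to the size of their error. In bulk pools, fewer cells or embryos that carry a transcript and less of that transcript per embryo cannot be told apart.

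The pools differed in the level of these genes, and DKO replicate 1 stood lowest. DKO replicate 1 was the lowest of the 8 pools in 49 of the 56 genes, beside 25.0% of all genes tested, and it lay below all 4 wild-type pools in 50 genes, beside 30.8%. The mean log2 CPM of the 56 genes stood at 6.42 in DKO replicate 1 and at 7.05, 6.90 and 7.04 in DKO replicates 2, 3 and 4. In the wild-type replicates 1 to 4 it stood at 7.15, 7.09, 6.85 and 7.24. Wild-type replicate 3 was thus below DKO replicates 2, 3 and 4, and the ranges of the genotypes overlapped. Wild-type replicate 3 was the lowest wild-type pool in 45 genes, beside 26.3% of all genes tested, and replicate 4 the highest in 33, beside 27.9%. The highest wild-type pool exceeded the lowest by a ratio of 1.04 to 1.99, with a median of 1.39. DKO replicate 1 also had the lowest limma-voom quality weight, 0.365.

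**Figure D2:**
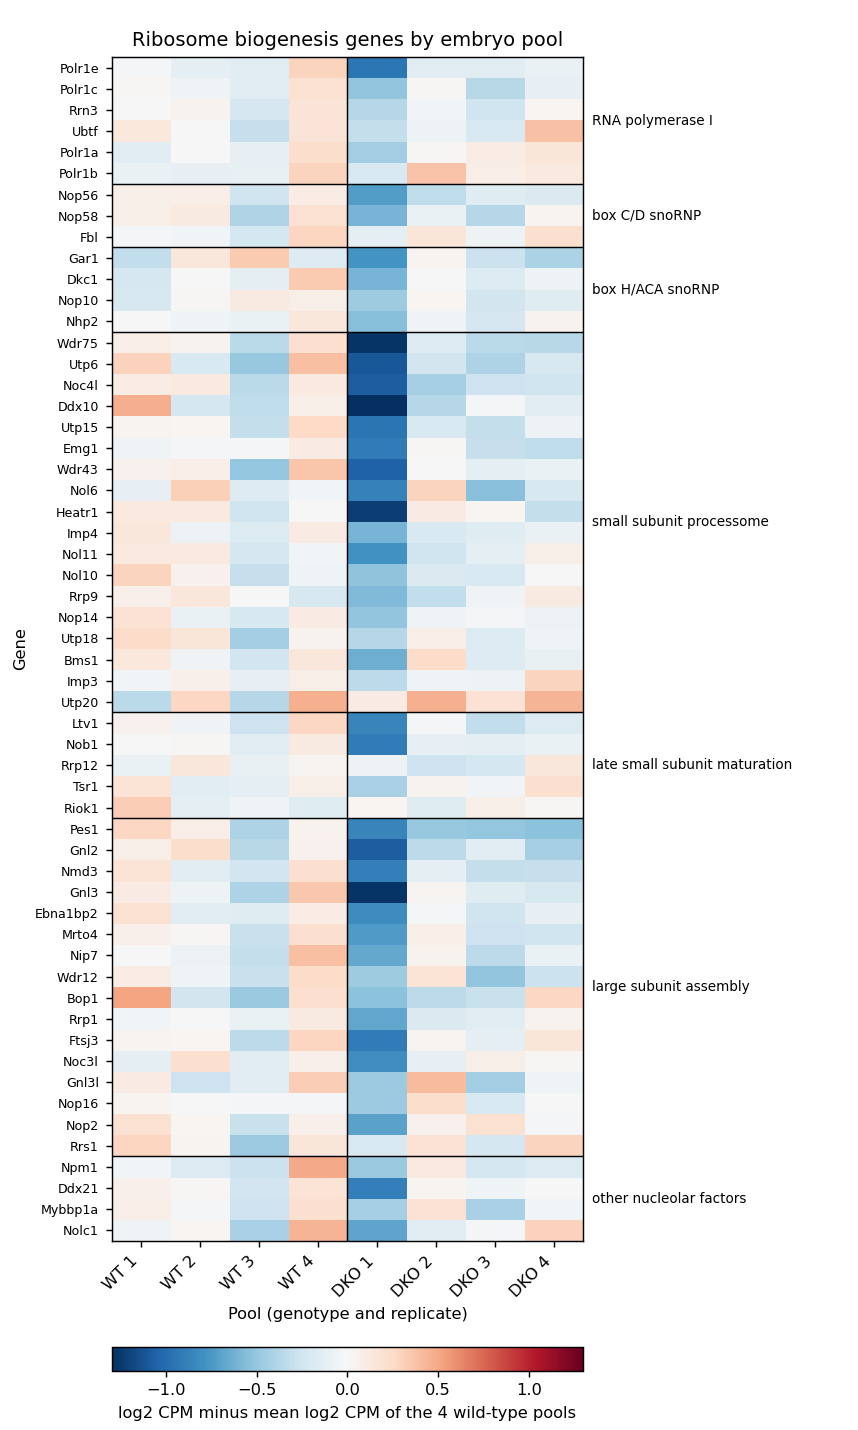
Each row is a gene, grouped by role, and each column a pool; colour gives log2 CPM minus the mean log2 CPM of the 4 wild-type pools, saturating at the ends of the scale. DKO replicate 1 is the lowest pool in 49 of 56 genes, and wild-type replicate 3 is the lowest wild-type pool in 45.

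Without DKO replicate 1, 44 of the 56 genes had a negative log2 fold change, beside 51.1% of all genes tested in that fit, and the median was −0.11, beside −0.01 over all genes. No gene of the 56 passed the adjusted p in that fit, beside 0.0261% of all genes. Pes1, Noc4l and Wdr75 then had an unadjusted p under 0.05, 3 genes in place of 6, beside 3.25% of all genes tested that were lower at that p. The genes with a positive log2 fold change went from 4 (Polr1b, Fbl, Utp20 and Rrs1) to 12, adding Polr1a, Ubtf, Imp3, Tsr1, Nop2, Nop16, Ftsj3 and Nolc1. These additions were named after their values were seen. Without wild-type replicate 3, the wild-type pool with the lowest mean, 54 of the 56 genes were negative, beside 48.2% of all genes in that fit. The median was then −0.28, beside 0.02 over all genes.

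The summed level of oocyte-derived transcripts had nearly the opposite order over the pools. The 12 markers of that list summed to 8918, 9235, 12272 and 7141 CPM in wild-type replicates 1 to 4. In DKO replicates 1 to 4 they summed to 20344, 11939, 14011 and 12243 CPM. The pool with the lowest mean of ribosome biogenesis genes, DKO replicate 1, had the highest oocyte sum, and the pool with the highest mean, wild-type replicate 4, had the lowest. Omt2a, Btg4 and Omt2b, the most abundant of the list, carried most of each sum; the other 9 markers summed to 1567 to 2355 CPM in wild-type and 2017 to 3512 CPM in DKO, again lowest in wild-type replicate 4 and highest in DKO replicate 1. DKO replicate 1 was the highest pool in 8 of the 12 markers, beside 27.1% of all genes tested. The zona pellucida genes Zp1, Zp2 and Zp3 and the maternal complex gene Nlrp5 had log2 fold changes within 0.02 of 0, and Zp3 was lowest in DKO replicate 1. Omt2a and Omt2b did not overlap between genotypes and were higher in DKO (edgeR adjusted p of 0.469 for both), where 2.79% of all genes tested had no overlap in that direction. Positive log2 fold changes were found in 10 of the 12, beside 51.2% of all genes tested, with a median of 0.42; without DKO replicate 1 the count was 9, beside 48.9%, and the median 0.20. Their part in the result for the ribosome biogenesis genes was not tested. Both sums come from the same libraries, in which each CPM is a share of the scaled total.

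**Figure D3:**
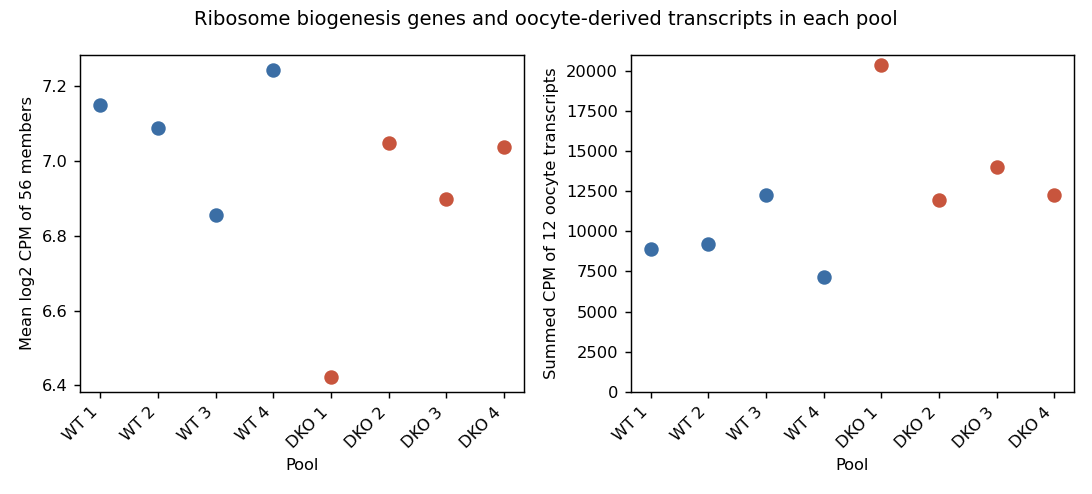
Left, mean log2 CPM of the 56 ribosome biogenesis genes in each pool; right, summed CPM of 12 oocyte-derived transcripts in the same pools. DKO replicate 1 is lowest on the left at 6.42 and highest on the right at 20344, and wild-type replicate 4 is highest on the left at 7.24 and lowest on the right at 7141.

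Genes of ribosomal RNA transcription showed small differences. Negative log2 fold changes were found in 5 of 6 genes (median −0.10), beside 48.8% of all genes tested. At an unadjusted p under 0.05 there were 0, beside 4.44% of all genes lower and 5.79% higher. Polr1e, a subunit that acts in polymerase I initiation, was at 358, 332, 328 and 441 CPM in wild-type and 189.5, 328, 328 and 342 CPM in DKO. The DKO replicates 2 to 4 lay within the wild-type range, and the log2 fold change of −0.30 ± 0.19 (SE; adjusted p of 0.564 in edgeR) became −0.14 without DKO replicate 1. Polr1c, a subunit shared with RNA polymerase III, had the highest level of the 6 per kilobase, 428 ± 43.9 CPM per kilobase in wild-type (SD, n = 4), and a log2 fold change of −0.23 ± 0.16 (SE). Polr1b, the second largest polymerase I subunit, was at 34.6 ± 4.86 CPM in wild-type and 37.1 ± 5.97 CPM in DKO (SD, n = 4 each). For Polr1b the log2 fold change was 0.10 ± 0.18 (SE). Ubtf, which opens ribosomal DNA chromatin for transcription, and Rrn3, which recruits the polymerase, had log2 fold changes of −0.04 ± 0.18 and −0.16 ± 0.15 (SE). For Ubtf, Polr1a and Polr1b the values of DKO replicates 2 to 4 averaged above wild-type, with log2 fold changes of 0.04, 0.08 and 0.18 without DKO replicate 1.

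Of the 3 box C/D snoRNP genes, 2 had negative log2 fold changes, beside 48.8% of all genes tested, and Fbl had a positive one. Nop56, a core protein of the box C/D particle, was at 323, 326, 255 and 327 CPM in wild-type and 185.1, 244, 275 and 269.7 CPM in DKO. Wild-type replicate 3 lay among the DKO pools, and the log2 fold change was −0.34 ± 0.16 (SE; adjusted p of 0.489 in edgeR). Its partner Nop58 had a log2 fold change of −0.25 ± 0.18 (SE). Fbl was at 27.4, 26.9, 23.6 and 33.4 CPM in wild-type and 25.4, 30.9, 26.4 and 31.9 CPM in DKO. These values overlapped almost wholly, and the log2 fold change was 0.04 ± 0.18 (SE). All 4 box H/ACA proteins had negative log2 fold changes, beside 48.8% of all genes tested. The values ran from −0.35 ± 0.21 for Gar1 to −0.18 ± 0.16 for Nhp2 (SE), with Dkc1 at −0.21 and Nop10 at −0.20. DKO replicate 1 was the lowest pool in all 4, beside 25.0% of all genes tested. Gar1, the least abundant of them, was at 27.0, 37.2, 42.6 and 29.9 CPM in wild-type and 19.6, 34.4, 27.7 and 25.3 CPM in DKO, so that 2 DKO pools lay inside the wild-type range.

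The small subunit processome, the large particle that folds and cuts the 18S part of the precursor, held 3 of the 6 genes with an unadjusted p under 0.05. Large subunit assembly held the other 3, and 4.44% of all genes tested were lower at that p. Negative log2 fold changes were found in 17 of the 18 processome genes (median −0.26), beside 48.8% of all genes tested. Without DKO replicate 1 the count was 16 with a median of −0.12, beside 51.1% of all genes. Noc4l, a partner of Nop14 in export of the small subunit precursor, was at 92.7, 95.2, 68.2 and 95.1 CPM in wild-type. In DKO it was at 41.4, 64.5, 72.4 and 72.9 CPM. Wild-type replicate 3 lay within the DKO range, and the other wild-type pools lay above every DKO pool. Its log2 fold change was −0.48 ± 0.19 (SE; adjusted p of 0.469 in edgeR), and −0.34 without DKO replicate 1.

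Wdr75, a WD-repeat protein of the subcomplex that joins the precursor first, was at 307, 299, 228 and 339 CPM in wild-type and 119.5, 256, 227 and 226 CPM in DKO. DKO replicate 1 stood below all other pools, and DKO replicate 2 lay above wild-type replicate 3. For Wdr75 the log2 fold change was −0.50 ± 0.21 (SE; adjusted p of 0.471 in edgeR), and −0.32 without DKO replicate 1. Utp6, a processome protein of another subcomplex, was at 259, 182, 149 and 275 CPM in wild-type and 98.0, 177, 159 and 181 CPM in DKO. Its wild-type pools were spread widely, and 3 DKO pools lay within their range. The log2 fold change of −0.49 ± 0.22 (SE; adjusted p of 0.480 in edgeR) was −0.33 without DKO replicate 1. Emg1, mutated in Bowen-Conradi syndrome, had close wild-type values of 448, 459, 457 and 501 CPM, and DKO values of 248, 471, 378 and 371 CPM. DKO replicate 2 lay inside the wild-type range and the other DKO pools below it, with a log2 fold change of −0.35 ± 0.18 (SE; adjusted p of 0.496 in edgeR).

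Utp20, a very large scaffold of the same particle, was the gene of the 18 with a positive log2 fold change. It was at 25.1, 38.6, 24.8 and 44.1 CPM in wild-type and 34.5, 44.3, 36.5 and 43.6 CPM in DKO. Wild-type replicates 1 and 3 lay below all 4 DKO pools, and wild-type replicates 2 and 4 lay among them. The log2 fold change was 0.26 ± 0.21 (SE; adjusted p of 0.643 in edgeR), and it stayed positive, from 0.14 to 0.42, in the 16 alternative settings tried. The other 13 genes of the processome (Utp15, Utp18, Wdr43, Heatr1, Nol6, Nol10, Nol11, Bms1, Rrp9, Imp3, Imp4, Nop14 and Ddx10) had log2 fold changes from −0.43 for the helicase Ddx10 to −0.03 for the U3 snoRNP protein Imp3.

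Genes of late small subunit maturation act on the particle on its way to and in the cytoplasm. All 5 had negative log2 fold changes, beside 48.8% of all genes tested, with a median of −0.10. Without DKO replicate 1 the count was 4, beside 51.1% of all genes, with a median of −0.11. An unadjusted p under 0.05 in edgeR was found in 0, beside 4.44% of all genes lower and 5.79% higher. Ltv1, which must leave the particle before the subunit can work, was at 458, 425, 364 and 529 CPM in wild-type and 243, 434, 352 and 390.3 CPM in DKO. Its log2 fold change was −0.32 ± 0.18 (SE; adjusted p of 0.530 in edgeR), and DKO replicates 2 and 4 lay within the wild-type range. The endonuclease Nob1, which makes the last cut of the 18S RNA, stood at −0.27 ± 0.18 (SE) for its log2 fold change, and at −0.11 without DKO replicate 1. The kinase Riok1 was at 180.2, 132, 139 and 129 CPM in wild-type and 146, 129, 151 and 146 CPM in DKO. Its log2 fold change of −0.02 ± 0.15 (SE) changed sign with the setting, between −0.08 and 0.09. Tsr1 and Rrp12 had log2 fold changes of −0.04 and −0.10.

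Large subunit assembly held the gene with the smallest p and the lowest log2 fold change of all 56. Pes1 (ENSMUSG00000020430), the founding protein of the PeBoW complex that processes the large subunit RNA precursor, was at 43.6, 38.3, 27.4 and 37.5 CPM in wild-type. In DKO it was at 20.0, 25.7, 25.5 and 25.0 CPM. All 4 DKO pools lay below the lowest wild-type pool, by a narrow margin against wild-type replicate 3. The means were 36.7 ± 6.73 and 24.1 ± 2.70 CPM (SD, n = 4 each), and the log2 fold change was −0.61 ± 0.19 (SE, edgeR unadjusted p = 0.00552, adjusted p = 0.469). Without DKO replicate 1 it was −0.54. Over the 16 alternative settings it ranged from −0.73 to −0.52 and its adjusted p from 0.140 to 0.835, so no setting called it. The other PeBoW proteins, Bop1 and Wdr12, had log2 fold changes of −0.24 ± 0.24 and −0.26 ± 0.18 (SE). Bop1 was at 52.9, 31.5, 26.5 and 43.1 CPM in wild-type and 25.7, 29.3, 30.4 and 44.9 CPM in DKO, with DKO replicate 4 above 3 of the wild-type pools.

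Negative log2 fold changes were found in 15 of the 16 large subunit genes (median −0.25), beside 48.8% of all genes tested. Without DKO replicate 1 the count was 12 with a median of −0.14, beside 51.1% of all genes. Gnl2, a nucleolar GTPase of the pre-large-subunit particle, was at 87.3, 97.6, 64.7 and 86.3 CPM in wild-type and 39.4, 65.4, 75.6 and 61.6 CPM in DKO. DKO replicates 2 and 3 lay above wild-type replicate 3. For Gnl2 the log2 fold change was −0.47 ± 0.20 (SE; adjusted p of 0.471 in edgeR), and −0.32 without DKO replicate 1. Nmd3, the adaptor that exports the large subunit from the nucleus, was at 1088, 867, 810 and 1112 CPM in wild-type. In DKO it was at 518, 886, 773 and 781 CPM. DKO replicate 2 lay inside the wild-type range, and the log2 fold change of −0.39 ± 0.18 (SE; adjusted p of 0.484 in edgeR) was −0.26 without DKO replicate 1.

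Gnl3 (nucleostemin), a nucleolar GTPase abundant in stem cells, was at 633, 561, 445 and 746 CPM in wild-type and 242, 599, 524 and 506 CPM in DKO. DKO replicates 2 to 4 all lay within the wild-type range, and the log2 fold change of −0.35 ± 0.24 (SE; adjusted p of 0.589 in edgeR) was −0.14 without DKO replicate 1. Its relative Gnl3l had a log2 fold change of −0.11 ± 0.24 (SE). Rrs1, which helps to place the 5S ribonucleoprotein in the large subunit, was at 52.2 ± 11.0 CPM in wild-type and 52.3 ± 9.60 CPM in DKO (SD, n = 4 each). Its log2 fold change of 0.00 ± 0.19 (SE) had no stable sign, between −0.14 and 0.10 over the settings. Nop16 had the narrowest wild-type spread of the 56 genes, at 470.4, 460.5, 457 and 453.5 CPM, and stood at 331, 539.8, 400.3 and 459 CPM in DKO, with pools on both sides. The remaining large subunit genes, Rrp1, Nip7, Nop2, Noc3l, Ebna1bp2, Ftsj3 and Mrto4, had log2 fold changes between −0.28 and −0.09.

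**Figure D4:**
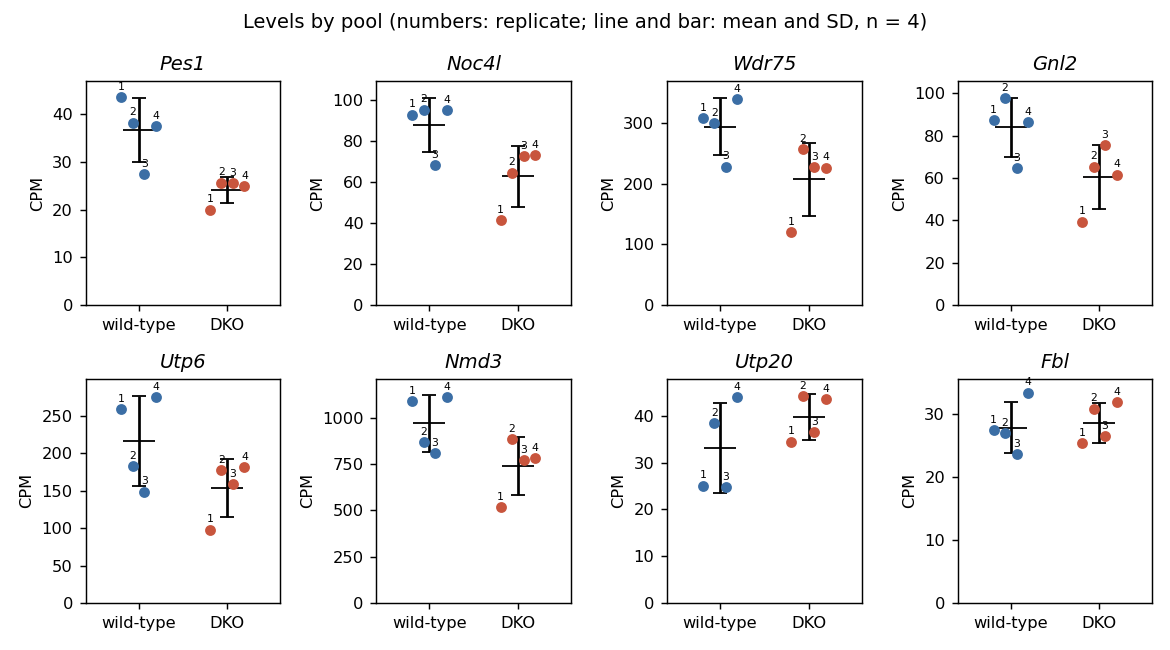
CPM in each pool (vertical axes, from 0) for the 6 genes with an unadjusted p under 0.05, for Utp20 and for Fbl; numbers mark the replicate, lines the mean and bars the SD (n = 4). Pes1 is the gene without overlap, and DKO replicate 1 is the lowest point in the first 6 panels.

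The 4 nucleolar factors of broader role all had negative log2 fold changes, beside 48.8% of all genes tested, with a median of −0.18. DKO replicate 1 was the lowest pool in each, beside 25.0% of all genes tested. Npm1 was at 1169, 1057, 986 and 1678 CPM in wild-type and 857, 1302, 1020 and 1056 CPM in DKO. Wild-type replicate 4 stood above all other pools, and the log2 fold change was −0.21 ± 0.19 (SE; adjusted p of 0.684 in edgeR). Nolc1, a chaperone of snoRNPs, had a log2 fold change of −0.13 ± 0.21 (SE), which was 0.02 without DKO replicate 1. The helicase Ddx21 and the MYB-binding protein Mybbp1a had log2 fold changes of −0.19 ± 0.19 and −0.16 ± 0.18 (SE).

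**Figure D5:**
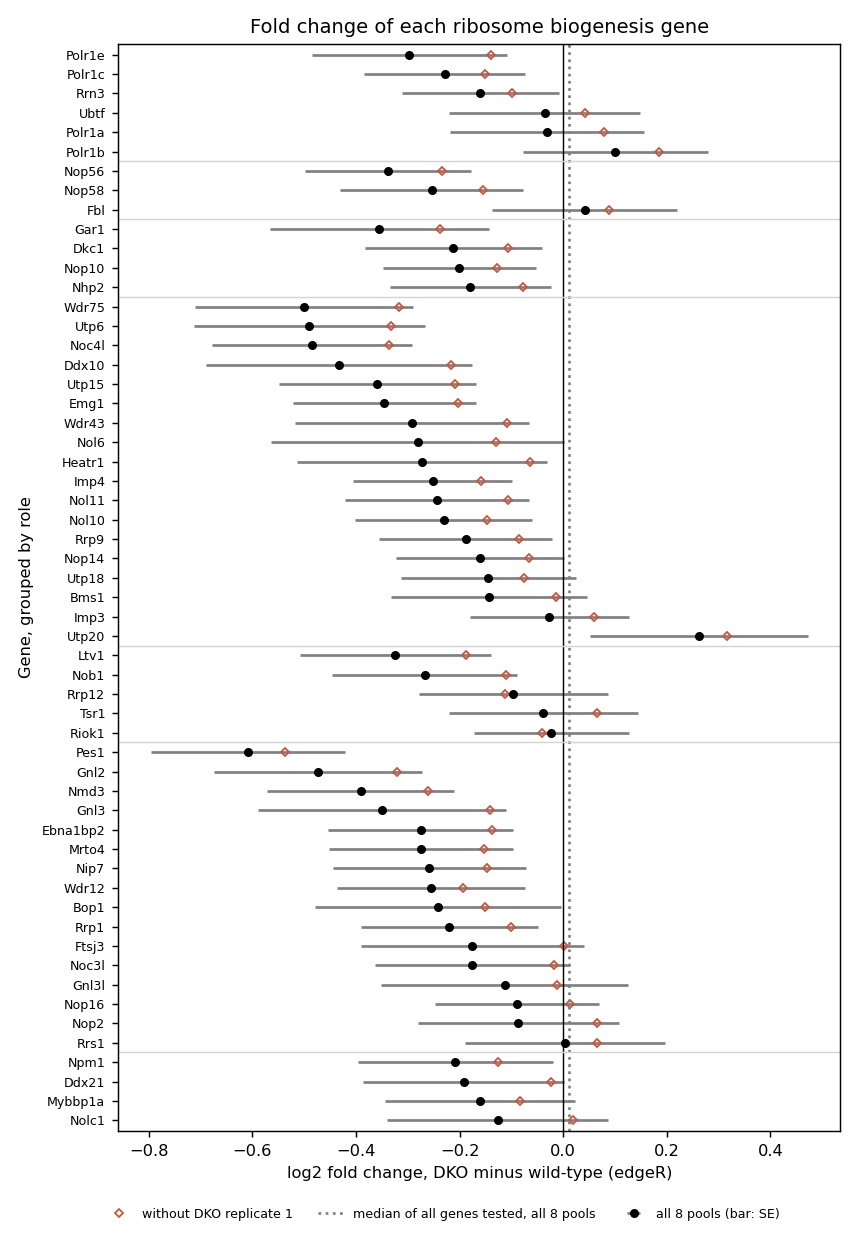
Log2 fold change (DKO minus wild-type) of each gene, grouped by role; black points are from all 8 pools with bars of 1 SE, open diamonds from the fit without DKO replicate 1, and the dotted line is the median of all genes tested. Without that pool, 44 of the 56 values are negative, beside 51.1% of all genes tested in that fit, and Pes1 remains the lowest.

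Another 99 ribosome biogenesis genes outside the list were examined in the same fit. Of these, 98 were matched and tested; Taf1a was not matched. Negative log2 fold changes were found in 81 of the 98 (median −0.22), beside 48.8% of all genes, and in 71 without DKO replicate 1 (median −0.09), beside 51.1%. edgeR called 0 of them, and at an unadjusted p under 0.05 there were 10 lower and 1 higher, beside 4.44% and 5.79% of all genes. By role, negative values were found in 35 of 38 large subunit factors, 25 of 30 small subunit factors, 13 of 15 genes of RNA trimming such as the exosome, 5 of 7 snoRNP assembly genes and 3 of 8 genes of RNA polymerase I and its initiation factors. Values of the genotypes did not overlap in 3 of the 98, all lower in DKO, a share close to the 2.55% of all genes.

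The gene of this wider set with the smallest p was Shq1, an assembly chaperone that holds Dkc1 before it enters the H/ACA particle. It was at 12.3, 7.35, 5.68 and 6.70 CPM in wild-type and 3.49, 2.81, 3.94 and 3.69 CPM in DKO. All 4 DKO pools lay below every wild-type pool. Its log2 fold change was −1.20 ± 0.29 (SE; adjusted p of 0.394 in edgeR), and −1.21 without DKO replicate 1. DESeq2 gave an adjusted p of 0.0310, the lowest of the 15 settings that tested this gene, in which the highest was 0.746. Ruvbl2, an ATPase of the complex that assembles box C/D snoRNPs, and Taf1b, a subunit of the polymerase I selectivity factor, had log2 fold changes of −0.62 ± 0.23 and −0.58 ± 0.22 (SE; adjusted p of 0.469 for both in edgeR).

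Mphosph6, a cofactor of the RNA exosome in the trimming of 5.8S RNA, went the other way. It was at 2586, 2752, 3645 and 2043 CPM in wild-type and 6619, 3502, 4773 and 2847 CPM in DKO. DKO replicate 1 was the highest pool, and DKO replicates 2 and 4 lay within the wild-type range. Its log2 fold change was 0.69 ± 0.24 (SE; adjusted p of 0.469 in edgeR), and 0.42 without DKO replicate 1. Naf1, another H/ACA assembly factor, and the processome protein Pwp2 had log2 fold changes of 0.30 ± 0.25 and 0.23 ± 0.20 (SE).

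Promoter sequence was available for 47 of the 56 genes, as RefSeq windows of 300 bases on GRCm38.p6 from 250 bases before to 50 bases after a transcript start, and some genes have more than 1 window. The E-box CACGTG, the best known binding sequence of MYC, a general activator of ribosome biogenesis genes, is its own reverse complement. It was present in the windows of 12 of the 47 genes (25.5%), beside 8.09% of all 27025 genes with a window and 11.2% of the 10729 tested genes with a window. The other searched sequences were chosen after the windows had been read: CCGGAAG, an ETS-type sequence, was found on either strand in 18 of the 47 genes (38.3%), beside 18.9% of tested genes, and CCAAT on either strand in 16 (34.0%), beside 43.8%. Genes with and without the E-box had much the same values: the median log2 fold change was −0.20 over 12 genes with it, 11 of them negative, and −0.23 over 35 genes without it, 34 of them negative. A match is a description of the letters, not of a bound factor.

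Windows of 4 genes are shown, because they hold the gene with the smallest p (Pes1), an exporter with an E-box (Nmd3), the processome gene with a positive value (Utp20) and a gene without an E-box that had a like negative value (Noc4l). Capitals mark the E-box, at bases 3, −114 and 38 from the start in Pes1, Nmd3 and Utp20. The window of Pes1 is chr11:3963725-3964024 on the plus strand, that of Nmd3 chr3:69721805-69722104 on the plus strand, that of Utp20 chr10:88826765-88827064 on the minus strand and that of Noc4l chr5:110653333-110653632 on the minus strand (GRCm38.p6).
Pes1: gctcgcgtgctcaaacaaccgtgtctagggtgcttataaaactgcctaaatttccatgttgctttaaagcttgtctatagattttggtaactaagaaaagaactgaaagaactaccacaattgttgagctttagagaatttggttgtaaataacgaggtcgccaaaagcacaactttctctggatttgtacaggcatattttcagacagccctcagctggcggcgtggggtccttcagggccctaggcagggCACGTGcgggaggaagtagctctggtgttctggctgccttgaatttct
Nmd3: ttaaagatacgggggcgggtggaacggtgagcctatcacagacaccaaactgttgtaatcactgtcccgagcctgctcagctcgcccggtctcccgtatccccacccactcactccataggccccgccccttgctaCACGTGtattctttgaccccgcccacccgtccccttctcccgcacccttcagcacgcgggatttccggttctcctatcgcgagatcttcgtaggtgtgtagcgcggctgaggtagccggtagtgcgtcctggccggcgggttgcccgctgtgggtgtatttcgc
Utp20: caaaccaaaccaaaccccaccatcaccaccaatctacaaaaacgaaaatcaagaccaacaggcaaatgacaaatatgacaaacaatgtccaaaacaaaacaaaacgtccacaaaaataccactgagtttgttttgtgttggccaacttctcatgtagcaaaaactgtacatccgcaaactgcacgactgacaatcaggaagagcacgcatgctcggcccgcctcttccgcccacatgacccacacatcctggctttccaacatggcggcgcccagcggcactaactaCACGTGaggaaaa
Noc4l: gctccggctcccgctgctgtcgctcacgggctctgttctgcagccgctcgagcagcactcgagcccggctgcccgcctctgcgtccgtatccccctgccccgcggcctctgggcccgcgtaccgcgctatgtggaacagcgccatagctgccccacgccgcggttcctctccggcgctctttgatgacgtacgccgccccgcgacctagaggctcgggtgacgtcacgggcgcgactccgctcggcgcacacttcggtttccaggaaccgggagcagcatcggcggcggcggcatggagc
Utp20 and Pes1 both have an E-box shortly after the start. Their log2 fold changes were 0.26 ± 0.21 and −0.61 ± 0.19 (SE), with adjusted p of 0.643 and 0.469 in edgeR. A part of the E-box in these values was not tested.

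Reads of some genes are uncertain, because 17 of the 56 share exon sequence with another annotated gene and the counting is not stated to use strand. Among the genes named above, these were Nop56, Nop58, Dkc1, Nhp2, Emg1, Riok1, Pes1, Bop1, Wdr12, Gnl2, Gnl3, Tsr1, Heatr1, Nol11, Rrp9, Nop14 and Mybbp1a. Nop56 and Gnl3 also host snoRNA genes within their exon overlaps. Of the genes named from the wider set, Ruvbl2 shares exon sequence with Gys1.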

How the data were processed

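Counts per Ensembl gene were used as the authors deposited them, 1 table per library, not normalized. STAR 2.5.2b, featureCounts 1.5.1 and DESeq2 1.18.1 and builds NCBIM37 and mm9 are named, per the submitters' processing notes; strand and multi-mapping settings are not given in the sources used here. Per the labels' protocols, polyA RNA was amplified in 11 PCR cycles for cDNA and 11 for the library; no molecular identifiers are named, so reads are not independent molecules.

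Symbols, exons and transcript lengths came from GENCODE M21 (GRCm38), a later build, so no coordinates of the counts are printed; 32620 of 37310 identifiers had a symbol. Level per kilobase used the longest transcript of the best APPRIS principal rank. All 8 libraries entered 1 fit on genotype in edgeR 4.0.16 (R 4.3.3): filterByExpr, TMM, robust quasi-likelihood test, Benjamini-Hochberg over 14970 genes, threshold 0.05. Log2 CPM used a prior count of 2. The standard error is the log2 fold change divided by the square root of the F statistic. Replicates are litters; every pair of libraries differed by more than counting noise (chi-square over its degrees of freedom at least 22.2). Fits were tested on simulated data.

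Alternatives were DESeq2 1.42.0, limma-voom 3.58.1 with quality weights, other scalings and filters, a threshold of 0.1, a replicate block and each library left out. Genes named were, in each role, those with the lowest and highest log2 fold change, smallest p and highest level per kilobase, all with an unadjusted p under 0.05 or no overlap, and up to 3 other pathway genes per direction; remaining names were chosen after values were seen. The members and lists were chosen with earlier results of these data known. Protein sequences were not used here.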

Additional observations from a re-analysis of the deposited data

Results flagged for a closer look

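Among the 28 genes named by rule and the mean over the 56 genes, 5 groups of 4 pools had 1 pool far from the rest, out of 58 groups checked, where chance marks about 1 in 20. In each, the gap to the nearest pool was above Dixon's critical value for 4 samples as a share of the group's range. Polr1e stood at 189.5 CPM in DKO replicate 1, with the other DKO pools at 328 to 342 CPM. Pes1 stood at 20.0 CPM in the same pool, with the others at 25.0 to 25.7 CPM. Nop56 stood at 255 CPM in wild-type replicate 3, with the other wild-type pools at 323 to 327 CPM. Noc4l stood at 68.2 CPM in wild-type replicate 3, with the others at 92.7 to 95.2 CPM. Polr1b stood at 41.9 CPM in wild-type replicate 4, with the others at 32.0 to 32.4 CPM.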

How the results depend on the processing

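With 4 pools per genotype and a median standard error of 0.18, single differences of the size seen here were mostly not detectable. Under the 16 alternatives, 0 of the 56 genes passed an adjusted p under 0.05 in either direction. Over all genes, edgeR called 4, against 7 with no filter, 1 with a mean of at least 10 CPM and 47 with DESeq2; the cause of the higher DESeq2 count was not tested. Lower genes at an unadjusted p under 0.05 numbered 6, and 1 to 11 with 1 library left out (fewest without wild-type replicate 1 or 4, most without DKO replicate 2), while the share over all genes ran from 2.91% without wild-type replicate 2 to 6.2% without DKO replicate 2 in the fits named in the report. Leaving 1 library out, the count of negative log2 fold changes ran from 44 to 54, and the median from −0.29 to −0.11. The share over all genes was 51.1% in the fit with 44 (without DKO replicate 1). It was 48.2% in the fits with 54 (without wild-type replicate 3 or DKO replicate 4). Scaling by library size gave 47 negative, beside 43.6% of all genes, and a median of −0.17, with a median of 0.07 over all genes.

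Of 28 genes named by rule, 5 changed sign, and the cause was not tested. Polr1b was at −0.0022 without DKO replicate 2. Fbl was at −0.036 without wild-type replicate 3 and −0.014 without DKO replicate 4. Riok1 was at 0.031 with library size scaling, 0.015 with at least 10 CPM, 0.032 with limma-voom, 0.093 without wild-type replicate 1 and 0.022 without DKO replicate 2. Rrs1 was at −0.0075 with RLE scaling, −0.0040 with no filter, −0.0075 with DESeq2, and −0.14, −0.055 and −0.096 without wild-type replicate 3, DKO replicate 2 and DKO replicate 4. With 1 library left out, the highest values of Polr1b, Fbl and Rrs1 were 0.20, 0.14 and 0.096, the lowest of Riok1 was −0.079, and the lowest of Nolc1 was −0.29. Nolc1 was at 0.036 without wild-type replicate 4 and 0.020 without DKO replicate 1.

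Replicate numbers are shared by the genotypes, but same-numbered pools did not deviate together (correlations 0.00235 to 0.078 across genes), so they were not treated as pairs. With a replicate block, 52 of 56 genes were negative, beside 48.6% of all genes, with a median of −0.23, and 5 were lower at an unadjusted p under 0.05, beside 4.66%.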

Other observations

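The 12 relatives of the listed genes given here as values were chosen after the values above were seen. Npm2, the oocyte nucleoplasmin, was at 120.1, 98.6, 131 and 125 CPM in wild-type and 187, 125, 133 and 124 CPM in DKO, highest in DKO replicate 1, where its relative Npm1 was lowest. Npm3 stood at 0.541 ± 0.274 CPM in wild-type and 0.532 ± 0.111 CPM in DKO (SD, n = 4 each). Utp14b, a relative of the processome gene Utp14a, was at 137, 131, 135 and 142 CPM in wild-type and 156, 167, 159 and 201 CPM in DKO. All 4 DKO pools lay above every wild-type pool for Utp14b, where 2.79% of all genes tested had no overlap and higher values in DKO. The fitted log2 fold change of Utp14b was 0.33 ± 0.14 (SE, adjusted p of 0.471 in edgeR, 0.342 to 0.835 over 16 alternative settings). Exon sequence shared with other genes was not checked for the relatives. Utp14a itself had a log2 fold change of −0.33 ± 0.19 (SE). Nsun2, a relative of Nop2, had a log2 fold change of −0.47 ± 0.21 (SE; unadjusted p of 0.0423 and adjusted p of 0.480 in edgeR), and −0.32 without DKO replicate 1. Wdr74, Nop9, Heatr3, Ddx50 and Riok3 had log2 fold changes of −0.41, −0.30, −0.20, −0.16 and −0.11, and Gnl1 and Pus10 of 0.10 and 0.23. Fbll1, a relative of Fbl, was too low to be tested.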
